A study of Drosophila melanogaster with 4 samples.

Results

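The Jonah and trypsin genes of Drosophila melanogaster encode secreted serine proteases of the adult and larval midgut. They were chosen by symbol: 16 Jonah genes, whose names start with Jon and a number, 11 trypsins named by Greek letters, and Try29F, Ser6, Ser8 and Ser12. The rule used no expression value, and it found 31 of the 17628 gene identifiers in the deposited count table. These data do not show in which tissue each of the genes was expressed. RNA was measured by poly(A) RNA-seq in whole flies of the Oregon strain, 5 days old, in 2 libraries from flies fed food with glucose and 2 from flies fed food with galactose. Both groups share strain, age and tissue, and the labels give no sex, no sugar concentration, no number of flies per library and no genetic change. The labels do not say whether replicate libraries of a diet stem from separate fly cultures, so a p-value here reflects the scatter of the libraries alone and that scatter may be technical.

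Serine proteases of this fold cut peptide bonds with a catalytic triad of histidine, aspartate and serine. Trypsins cut after lysine or arginine, whereas chymotrypsin-like enzymes, the type to which the Jonah proteases are usually assigned, prefer other residues, many of them large and hydrophobic. Enterocytes make them as inactive precursors and release them into the gut lumen, where they digest dietary protein together with carboxypeptidases and aminopeptidases. Many of the genes lie in small tandem clusters, and in flies their RNA is known to respond to food and to differ between gut regions.

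The libraries held 25497099 and 23334524 counts for glucose replicates 1 and 2, and 23647685 and 21147212 for galactose replicates 1 and 2. Of the 17628 identifiers, 12529 had enough counts to be tested, and edgeR's quasi-likelihood test with Benjamini-Hochberg adjustment called 0 of them (0%) between the diets, with a threshold of 0.05 on the adjusted p. The same edgeR test gave 386 genes higher on galactose (3.08%) and 647 lower (5.16%) when 0.05 was set on the unadjusted p. DESeq2, run as an alternative on all 17628 identifiers, gave an adjusted p for 12844 genes and called 13 of these higher (0.101%) and 75 lower (0.584%). Levels are given below as CPM, the count scaled to library size after TMM normalization, and levels of different genes are compared only per length, as CPM per kilobase of annotated exon (RPKM). Fold changes are galactose over glucose on the log2 scale, with standard errors (SE) from edgeR and 2 libraries per diet. Because whole flies were used, fewer cells of a type and less RNA per cell cannot be told apart in any of these values.

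In the reference annotation of the BDGP6 build named in the submitters' processing notes, 13 of the genes lie on chromosome arm 2R, 7 on 3L, 5 on 2L, 5 on 3R and 1 on the X. All 11 Greek-letter trypsins form a single 2R cluster between positions 11336840 and 11357537, a span of 20698 bases. The Jonah genes lie in clusters of 2 to 4 genes (Jon25B, Jon65A, Jon66C, Jon99C and Jon99F) or alone (Jon44E, Jon74E). The genes are short: 26 of the 31 have a single exon, the other 5 have several, and annotated exonic length runs from 810 to 1397 bases. Exons of 3 members overlap those of another gene: Jon44E over 3.51% of its exonic length and deltaTry over 1.85% on the opposite strand, and Try29F over 0.625% on the same strand. The sources used here do not say whether the authors' counting used strand, so reads in those stretches are uncertain.

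These proteases are among the most abundant messages of the whole fly. Jon65Aiv, a Jonah gene on 3L at 6039155 to 6040135, had the highest mean RPKM of the set, 4263, and ranked 4 among the 12277 tested genes that have an annotated length. Jon99Cii ranked 12, alphaTry 15, Jon65Aiii 23, betaTry 29, Jon25Biii 36 and Jon99Ciii 45, which put 7 members among the 50 genes with the highest RPKM. At the other end Try29F had a mean RPKM of 2.06, so tested members spanned a 2068-fold range per length. On the CPM scale 9 members averaged over 1000 CPM, 9 lay between 100 and 1000, and 12 tested members lay at 100 or below. The 8 most abundant members by CPM took 79.6% of all counts on the set.

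**Figure D1:**
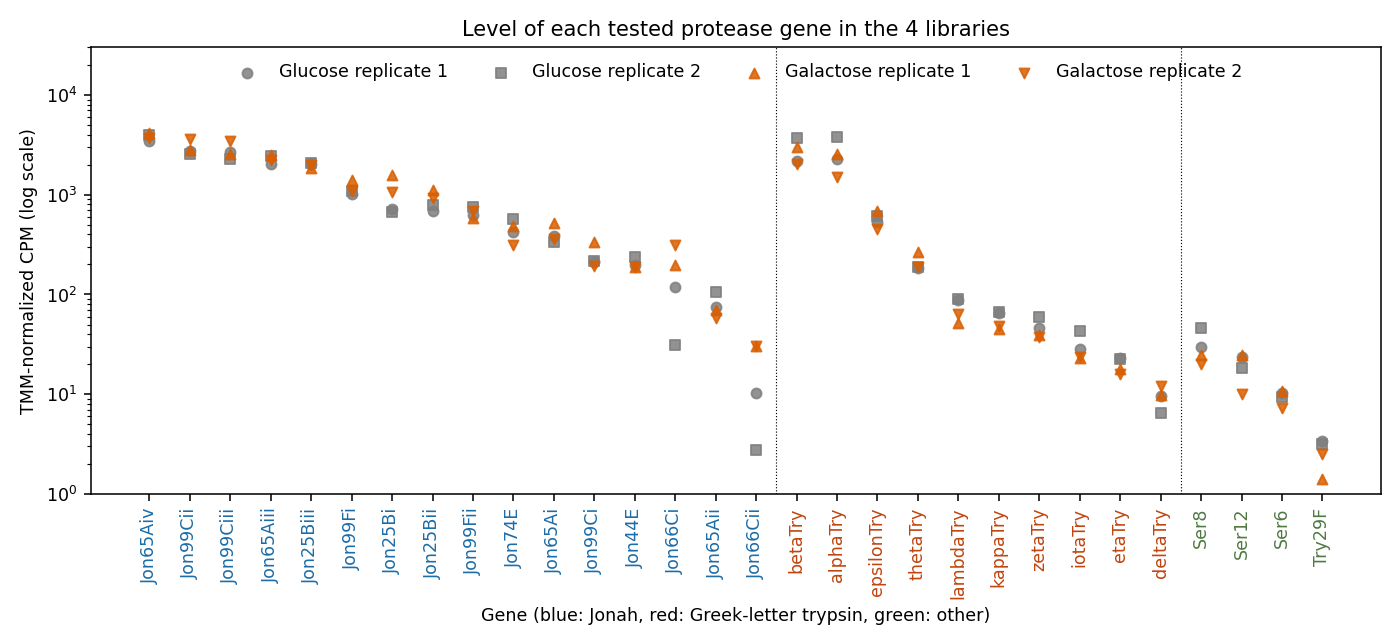
TMM-normalized CPM on a log axis for each of the 30 tested protease genes in each of the 4 libraries, grouped as Jonah genes, Greek-letter trypsins and the 4 other genes, each sorted by mean level. The 4 libraries lie close together for the most abundant Jonah genes, while Jon66Ci and Jon66Cii spread from 31.4 to 310.4 CPM and from 2.73 to 30.5 CPM.

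Summed over all 31 genes, the proteases took 2.31% of the counts in glucose replicate 1 (95% Wilson interval 2.307 to 2.319), 2.47% in glucose replicate 2 (2.467 to 2.480), 2.78% in galactose replicate 1 (2.773 to 2.786) and 2.60% in galactose replicate 2 (2.593 to 2.607). These intervals cover counting error only, because PCR reads without molecular identifiers are not independent molecules. The means were 2.39% ± 0.114 (SD, n = 2) on glucose and 2.69% ± 0.127 (SD, n = 2) on galactose, and both galactose libraries lay above both glucose libraries. With TMM scaling the summed levels were 22978 and 26733 CPM on glucose against 27283 and 24707 on galactose, and the groups overlapped.

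The subfamilies contributed to the sum in different ways. The Jonah genes took 1.76% and 1.68% of counts on glucose and 2.09% and 2.14% on galactose. On the TMM scale that is 17462 and 18142 CPM against 20473 and 20292, so both galactose libraries were higher, but under upper-quartile scaling the values were 19004 and 18003 against 20790 and 18503 and overlapped. The Greek-letter trypsins took 0.548% and 0.788% on glucose and 0.688% and 0.460% on galactose, and overlapped under each of the 3 scalings. The ratio of summed Jonah RPKM to summed trypsin RPKM within a library, which no scaling can change, was 3.25 and 2.19 on glucose and 3.13 and 4.76 on galactose. That ratio was lowest in glucose replicate 2 and highest in galactose replicate 2, and the diets overlapped.

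**Figure D2:**
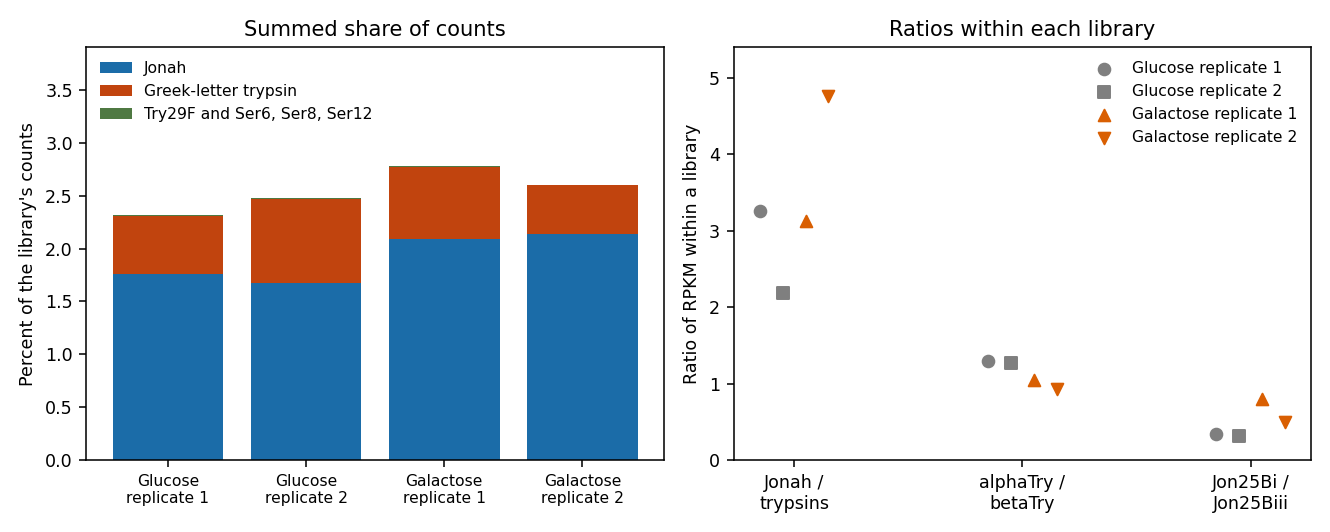
Left, the percent of each library's counts on the Jonah genes, the Greek-letter trypsins and the 4 other genes, stacked; right, 3 ratios of RPKM within each library, 1 point per library. Jonah genes took 1.68% to 1.76% on glucose and 2.09% to 2.14% on galactose, while the trypsin share ran from 0.460% to 0.788% with the diets overlapping.

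The log2 fold changes farthest from 0 in the set, and the calls that DESeq2 made, lay in the Jon66C pair, 2 neighbouring Jonah genes on 3L that are transcribed in opposite directions. Jon66Cii (8392820 to 8393649, minus strand) was at 10.4 and 2.73 CPM in the glucose libraries and at 30.5 and 30.3 CPM in the galactose libraries. Both galactose libraries were higher, and the glucose libraries differed 3.79-fold between themselves while the galactose libraries were nearly equal. Its log2 fold change was 2.21 ± 0.58 (SE), a 4.64-fold ratio of means, with an adjusted p of 0.582 by edgeR. DESeq2 gave 2.29 with an adjusted p of 0.00225 and called it.

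Jon66Ci (8391540 to 8392377, plus strand) was at 117.8 and 31.4 CPM on glucose and at 196.7 and 310.4 CPM on galactose. The groups did not overlap, and again glucose replicate 2 was the lowest library, 3.76-fold below glucose replicate 1, a wider gap than the 3.40-fold ratio of diet means. The log2 fold change was 1.76 ± 0.59 (SE), with an adjusted p of 0.582 by edgeR and an adjusted p of 0.0382 by DESeq2. The pair were the only members that DESeq2 called, 2 genes higher on galactose against 0.101% of the genes with an adjusted p, and no member was called lower by it. Without glucose replicate 1 the edgeR log2 fold changes were 3.47 for Jon66Cii and 3.01 for Jon66Ci, and without glucose replicate 2 they were 1.56 and 1.11. They were 2.14 and 1.99 without galactose replicate 1, and 2.23 and 1.41 without galactose replicate 2. Each of these fits leaves 1 library in a diet, so only the sizes are given here. Within a library Jon66Ci exceeded Jon66Cii per length by 11.3-fold and 11.4-fold on glucose and by 6.38-fold and 10.2-fold on galactose. The ratio was lower in both galactose libraries while both genes were higher, but galactose replicate 2 lay close to the glucose values. Jon66Cii had only 59 counts in glucose replicate 2, and the ratio was not tested between the diets.

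The authors' deposited table of differential expression, which rests on the same libraries and is not separate support, marks the Jon66C pair, and no other member, as significant. Turned to galactose over glucose, the authors' deposited table gives log2 fold changes of 1.48 for Jon66Cii, with an adjusted p of 0.00236, and 1.20 for Jon66Ci, with an adjusted p of 0.0389. For the next member, Jon25Bi, the authors' deposited table gives 0.77 and an adjusted p of 0.224. These deposited log2 fold changes lie below those from DESeq2 here, 2.29 for Jon66Cii, 1.85 for Jon66Ci and 0.97 for Jon25Bi. Yet the deposited mean counts for Jon66Cii were 147.3 on glucose and 722.9 on galactose. How the deposited fold changes were estimated is not stated.

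The Jon25B cluster on 2L holds 3 genes that differed from each other in how the diets compared. Jon25Bi (4954279 to 4955144) was at 718.8 and 678.1 CPM on glucose and at 1579 and 1058 CPM on galactose. Both galactose libraries were above both glucose libraries, with a log2 fold change of 0.92 ± 0.27 (SE) and an adjusted p of 0.582 by edgeR, so it was not called, and without galactose replicate 1 the value was 0.53. Jon25Bii, next to it, was at 683.5 and 786.3 CPM against 1115 and 934.8 CPM, again without overlap, at 0.48 ± 0.24 (SE) with an adjusted p of 0.621 by edgeR, and at 0.28 without galactose replicate 1.

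Jon25Biii, the most abundant of the trio per length, was at 2024 and 2060 CPM on glucose and at 1872 and 1995 CPM on galactose. It lay slightly lower in both galactose libraries, but not under median-of-ratios scaling, and its log2 fold change was -0.079 ± 0.22 (SE). Per length, the ratio of Jon25Bi to Jon25Biii was 0.339 and 0.314 within the glucose libraries and 0.805 and 0.506 within the galactose libraries. The ratio of Jon25Bii to Jon25Biii was 0.312 and 0.353 on glucose against 0.551 and 0.433 on galactose. For each ratio the galactose values lay above the glucose values without overlap, and lay farther apart from each other than the glucose values did. Neither ratio was tested between the diets, and how often ratios of other gene pairs separate this way is not given. A difference between the diets in the make-up of the cluster's RNA was therefore not established.

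For Jon65Aiv and Jon65Aiii, Jonah genes among the most abundant, the ratio of diet means was 1.06. Jon65Aiv was at 3493 and 3994 CPM on glucose and at 4186 and 3740.5 on galactose, with overlap, at a log2 fold change of 0.082 ± 0.23 (SE). Jon65Aiii, its neighbour on 3L, was at 2022 and 2444 CPM against 2510.5 and 2219, also overlapping, and at 0.083 ± 0.23 (SE). Under upper-quartile scaling the values turned to -0.019 and -0.017.

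The other 2 genes of the Jon65A cluster are less abundant and did not lie to the same side. Jon65Ai was at 385.0 and 334.3 CPM on glucose and at 520.8 and 362.1 on galactose, with overlap. Jon65Aii was at 74.8 and 105.3 CPM against 69.8 and 58.4, lower in both galactose libraries, at -0.49 ± 0.28 (SE) with an adjusted p of 0.644 by edgeR. Its ratio to Jon65Aiii per length was 0.0389 and 0.0453 on glucose and 0.0292 and 0.0276 on galactose.

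In the Jon99C cluster on 3R, all 3 genes had a higher mean on galactose, and Jon99Cii alone was without overlap, which it lost under upper-quartile scaling. Jon99Cii was at 2755 and 2555 CPM on glucose and at 2834 and 3657 on galactose, at 0.29 ± 0.24 (SE) and an adjusted p of 0.733 by edgeR. Jon99Ciii was at 2691 and 2283 CPM against 2581 and 3464, with overlap, at 0.28 ± 0.25 (SE). Galactose replicate 2 was the highest library for both, without it the values were 0.10 and 0.060, and their ratio per length stayed between 1.47 and 1.61 in the 4 libraries. The pair are similar copies, and the authors' counting could have left reads that match both unassigned, which a sum would not restore. Summed, they gave 0.29 ± 0.24 (SE), adjusted p = 0.735 by edgeR. Jon99Ci, the third gene, was at 209.3 and 215.4 CPM on glucose and at 336.1 and 191.9 on galactose.

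Jon99Fi and Jon99Fii, a second pair of similar copies on 3R, were at 1027 and 1092 CPM against 1389 and 1085, and at 623.5 and 745.0 CPM against 581.5 and 684.4. The diets overlapped for each, and their sum gave a log2 fold change of 0.10 ± 0.23 (SE). The lone genes had lower means on galactose: Jon44E was at 199.6 and 238.7 CPM against 187.4 and 188.2, without overlap except under median-of-ratios scaling, and Jon74E was at 427.7 and 574.5 CPM against 483.3 and 312.1, with overlap.

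Among the trypsins, alphaTry and betaTry carry most of the RNA. alphaTry (2R, 11344260 to 11345119) was at 2276 and 3759 CPM on glucose and at 2570.5 and 1507 CPM on galactose. The libraries of a diet differed 1.65-fold and 1.71-fold, the groups overlapped, and the log2 fold change was -0.57 ± 0.36 (SE) with an adjusted p of 0.663 by edgeR. In the edgeR fits that left out a library the value for alphaTry was -0.88 or -0.15 when glucose replicate 1 or 2 was dropped, and -1.07 or -0.23 when galactose replicate 1 or 2 was dropped. betaTry, nearby on the other strand, was at 2194 and 3673 CPM against 3040.3 and 2023, at -0.21 ± 0.33 (SE). Without glucose replicate 2 the value for betaTry turned to 0.21, and without galactose replicate 2 it turned to 0.055.

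Reads that match both genes of the pair could likewise have been left unassigned. The sum of their counted reads gave -0.38 ± 0.34 (SE) with an adjusted p of 0.746 by edgeR. Per length the ratio of alphaTry to betaTry was 1.29 and 1.27 on glucose and 1.05 and 0.928 on galactose, lower in both galactose libraries, and it was not tested between the diets. Both genes had glucose replicate 2 as their highest library, then galactose replicate 1, glucose replicate 1 and galactose replicate 2. Jon74E shared that order, which 439 of the 12529 tested genes (3.50%) had, as did 10 of 118 tested genes on the digestive and tissue lists described below, among them yip7 and Amy-p. The order was noticed after the values were seen and is given as a description.

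Lower levels in both galactose libraries, also under both other scalings tried, were seen for 5 less abundant trypsins, and edgeR called none of them. Of all tested genes 23.4% lay lower in both galactose libraries with TMM scaling, 20.6% with median-of-ratios and 27.7% with upper-quartile scaling. lambdaTry was at 89.0 and 90.04 CPM on glucose and at 51.8 and 63.9 on galactose, at -0.63 ± 0.25 (SE) and an adjusted p of 0.603 by edgeR. kappaTry, which is adjacent to it, was at 64.6 and 66.9 CPM against 44.9 and 48.4, at -0.50 ± 0.24 (SE). iotaTry, at the far end of the cluster, was at 28.6 and 43.4 CPM against 23.2 and 23.8, at -0.61 ± 0.30 (SE), which was -0.27 without glucose replicate 2 by edgeR and -0.16 by DESeq2. zetaTry and etaTry completed the 5, at -0.46 and -0.44. Ratios of glucose over galactose means for the 5 ran from 1.36 to 1.55.

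The remaining trypsins of the cluster lay elsewhere. thetaTry, which lies between etaTry and alphaTry, was at 182.4 and 188.1 CPM on glucose and at 266.1 and 188.1 on galactose. Per length, the ratio of lambdaTry to thetaTry was 0.537 and 0.526 on glucose and 0.214 and 0.373 on galactose, for a pair of genes that was chosen after their values were seen. epsilonTry had the same mean on both diets, 570.1 CPM, with a log2 fold change of 0.00 ± 0.28 (SE). deltaTry was at 9.59 and 6.48 CPM against 9.92 and 11.998, at 0.45 ± 0.36 (SE), higher without overlap except under upper-quartile scaling. gammaTry had 0 counts in every library, which allows up to 0.139 CPM at a floor of 3 counts per library. The annotation gives gammaTry and deltaTry the same exonic length, 810 bases, and with closely similar neighbours the authors' counting could have left reads unassigned, so neither level is certain.

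Outside the clusters, all 4 other genes had a lower mean on galactose. Ser8, on 2R at 13434207 to 13435045, was at 29.8 and 46.2 CPM on glucose and at 24.99 and 20.2 on galactose, without overlap, at -0.75 ± 0.32 (SE) and an adjusted p of 0.606 by edgeR, and without glucose replicate 2 at -0.40 by edgeR and -0.29 by DESeq2. Try29F was at 3.43 and 3.20 CPM against 1.41 and 2.52, also without overlap, and rests on 34 to 88 counts per library. Ser12 was at 23.4 and 18.5 CPM against 24.7 and 9.98, and Ser6 at 10.4 and 9.45 CPM against 10.8 and 7.28, both with overlap. Without galactose replicate 2 only 2 of the 4 had a log2 fold change below 0.

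Across the 30 tested members 13 log2 fold changes were above 0 and 17 below, with a median of -0.096 against -0.038 over all tested genes. edgeR called none of them, with adjusted p from 0.582 to 1.00, and at an unadjusted p under 0.05 it gave 3 higher (Jon66Ci, Jon66Cii, Jon25Bi) and 2 lower (lambdaTry, Ser8), against 3.08% and 5.16% of all genes. Both galactose libraries lay above both glucose libraries for 6 members, where 18.8% of all tested genes did so, and below them for 10, where 23.4% did. Under median-of-ratios scaling those counts were 10 and 8, and under upper-quartile scaling 4 and 11.

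The medians of the subfamilies lay on different sides of 0. Of the 16 Jonah genes 11 were above 0, where 46.9% of all tested genes were, with a median of 0.25. Without overlap 5 were higher, 2 of them the Jon66C pair, and 3 lower, against 18.8% and 23.4% of all tested genes. Under upper-quartile scaling 9 Jonah genes were above 0 and 7 below. On that scale 4 were higher and 4 lower without overlap, against 14.6% and 27.7%. Of the 10 tested trypsins 8 were below 0, 1 of them epsilonTry at 0.00, where 53.1% of all tested genes were, with a median of -0.45. Without overlap 1 was higher and 5 lower with TMM scaling, against 18.8% and 23.4%. The 4 other genes had a median of -0.51. Upper-quartile scaling moved the median of all genes by -0.11, and relative to that median the Jonah value was 0.29 under both scalings. Without galactose replicate 1 the edgeR fit put 6 Jonah genes above 0 and 10 below, with a median of -0.063 that lay 0.11 above the median of all genes in that fit, while DESeq2 without it put 12 above and 4 below, with a median of 0.076. The trypsin median stayed below 0 when each library was left out of the edgeR fit, from -0.56 to -0.21. The difference between the subfamilies was not tested.

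**Figure D3:**
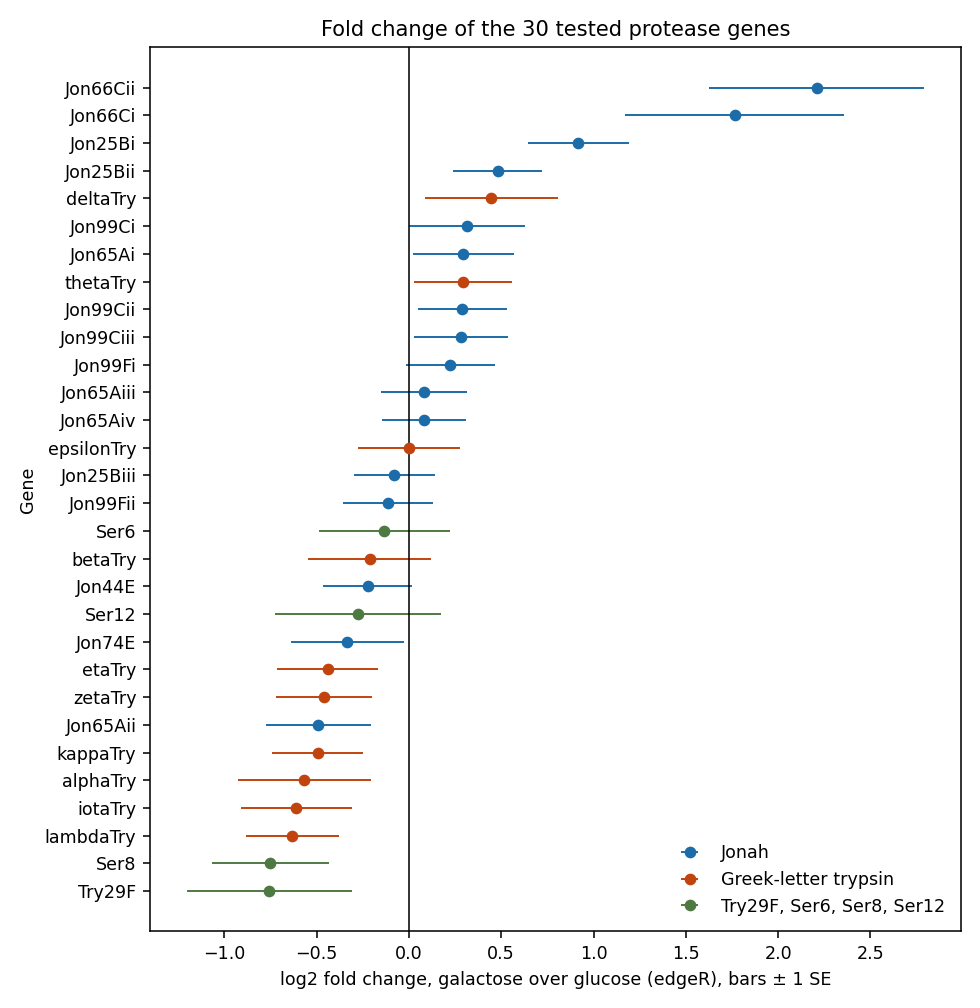
edgeR log2 fold change, galactose over glucose, for the 30 tested protease genes in order of size, with bars of 1 SE and the 3 subfamilies in colour. Jon66Cii at 2.21 and Jon66Ci at 1.76 stand at the top and Ser8 and Try29F at the bottom, and none was called by edgeR.

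Median folds within a diet and between diet means were of similar size over the set, but they are unlike measures. A fold within a diet compares 2 single libraries, while each diet mean averages 2 libraries. The median fold between the glucose libraries over the tested members was 1.17, between the galactose libraries 1.26, and between the diet means 1.25. For 9 of the 30 tested members the diet means differed by more than both within-diet folds. The same share over all tested genes was not computed, so this count shows nothing particular to the set. Glucose replicate 2 exceeded glucose replicate 1 for 19 of 30 members, where 49.3% of all tested genes did so, and galactose replicate 1 exceeded galactose replicate 2 for 19 of 30, where 51.4% did.

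**Figure D4:**
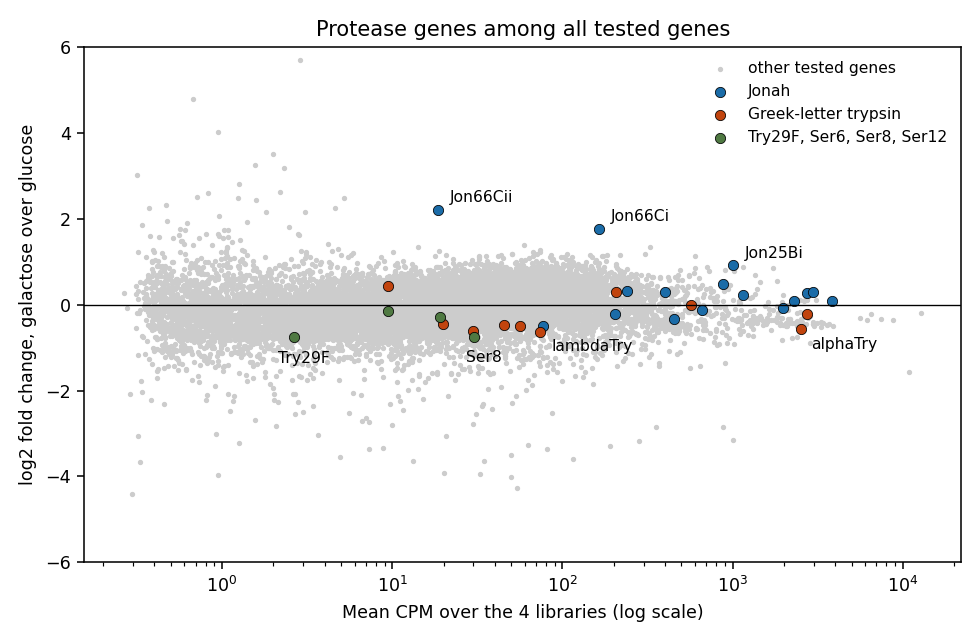
edgeR log2 fold change, galactose over glucose, against mean CPM over the 4 libraries on a log axis, with the 30 tested protease genes in colour over the other tested genes in grey. The Jon66C pair lies above most genes of its level, while the members over 1000 CPM lie between -0.57 and 0.92.

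Other digestive enzymes and proteases of related type were listed by function to set beside the proteases. Their tissue was not checked gene by gene: CG17239 and CG17234 lie on 2L between Ser12 and Send1, a spermatheca protease of a list below. The lists were chosen with earlier results of these data known, so their counts are descriptions and not a test of a gene family. Of 25 tested serine proteases of the same fold outside the set, 22 were below 0, where 53.1% of all tested genes were, with a median of -0.57. Without overlap 14 were lower and 2 higher, against 23.4% and 18.8% of all genes, and edgeR gave 7 lower and 1 higher at an unadjusted p under 0.05, against 5.16% and 3.08%. CG17571 was at 169.8 and 209.6 CPM on glucose and at 69.9 and 68.1 on galactose, at -1.46 ± 0.25 (SE) with an adjusted p of 0.541 by edgeR, and DESeq2 called it lower (adjusted p = 0.00818). CG3088 and CG10477 were at -1.28 and -1.27, also lower in both galactose libraries. yip7, with the highest CPM of the list, was at 3337 and 4143 CPM against 3445 and 2262, with overlap.

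Carboxypeptidases and aminopeptidases, which trim the peptides that endoproteases release, had 16 of 18 below 0 and a median of -0.46, with 10 lower and 1 higher without overlap, against the same 23.4% and 18.8% of all genes. edgeR gave 4 lower and 1 higher at an unadjusted p under 0.05, against 5.16% and 3.08%. CG17633 was at 530.4 and 814.9 CPM on glucose and at 387.0 and 340.4 on galactose, and CG8562 was at 113.1 and 137.1 CPM against 79.8 and 54.6. CG3108 lay the other way, at 0.273 and 0.139 CPM against 1.95 and 0.494, a level of few counts. CG12374, the most abundant, was at 2421 and 2735 CPM against 3746 and 1823, with overlap.

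The aspartic and lysosomal-type proteases, which act mainly inside cells or in acid gut regions, had 5 of 8 below 0 and a median of -0.27. cathD, the lysosomal aspartic protease cathepsin D, was at 561.2 and 596.4 CPM on glucose and at 437.2 and 342.5 on galactose, and CtsB, a cathepsin B, was at 450.5 and 515.3 CPM against 388.5 and 287.6. CG31926 was at 21.2 and 8.99 CPM against 30.1 and 24.5, and CtsL1, the most abundant, had overlapping libraries. Amylases and lipases, which digest starch and fat, had 7 of 11 above 0 and a median of 0.34, with 1 higher and 1 lower without overlap. Their most abundant gene, Amy-p, was nevertheless at 459.3 and 852.0 CPM against 541.7 and 289.4, a level that may be shared with its copy Amy-d. CG6271 was at 0.662 and 0.417 CPM against 2.12 and 1.12, CG6277 was at 0.92 ± 0.44 (SE) with overlap, and mag was at -0.41 ± 0.24 (SE), lower without overlap. edgeR called 0 genes of these 4 lists, DESeq2 called CG17571, and at an unadjusted p under 0.05 edgeR gave 0 of the aspartic and lysosomal-type proteases and 1 of the amylases and lipases, CG6271.

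**Figure D5:**
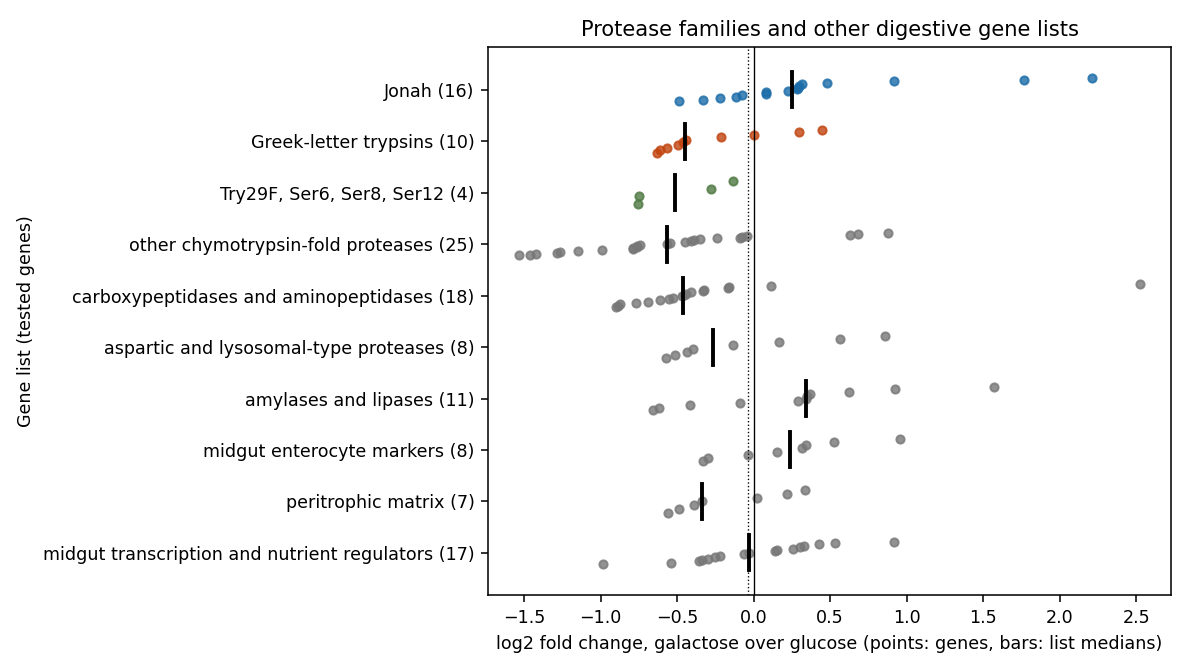
edgeR log2 fold change, galactose over glucose, of each tested gene in the 3 protease subfamilies and 7 lists of other digestive and related genes, with a bar at each median and a dotted line at the median of all tested genes, -0.038. The lists were chosen with earlier results of these data known. The Jonah median is 0.25, while the medians of the trypsins, the other chymotrypsin-fold proteases and the carboxypeptidases and aminopeptidases are -0.45, -0.57 and -0.46.

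Markers of the cells that make these enzymes were measured in the same libraries. The 8 midgut enterocyte markers, all tested and all above 0 counts, summed to 690.9 and 1376 CPM on glucose and 994.7 and 1016 on galactose, with overlap, and 5 of the 8 were above 0, with a median of 0.23. The transporter gene yin was at 178.7 and 399.9 CPM against 270.6 and 464.2, and mex1 was at 20.7 and 10.6 CPM against 20.9 and 18.1, both with overlap. LManVI, an alpha-mannosidase and the most abundant, was at 289.4 and 594.6 CPM against 410.9 and 306.7, and LManV was at 140.6 and 291.5 CPM against 194.1 and 150.1. LManIII overlapped at 0.53 ± 0.39 (SE), and LManIV was at 3.23 and 2.69 CPM against 8.09 and 3.42. Genes of the peritrophic matrix, the chitin and protein sheath inside the midgut, had 3 of 7 above 0 and a median of -0.34, with Muc68D at 262.2 and 522.6 CPM against 380.3 and 218.7. Peritrophin-15a was higher without overlap, except under upper-quartile scaling, at 0.34 ± 0.26 (SE), and Crys and obst-B overlapped at -0.56 and -0.48. Glucose replicate 1 had the lowest marker sum and glucose replicate 2 the highest, and the part of gut content in the protease values was not tested.

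Regulators of midgut genes and of the response to nutrients were divided, with 8 of 17 above 0 and a median of -0.030. GATAd, a GATA-type factor expressed in the midgut, was at 28.6 and 22.5 CPM on glucose and at 41.1 and 55.6 on galactose, at 0.92 ± 0.29 (SE) with an adjusted p of 0.582 by edgeR. sug, known as sugarbabe and as a sugar-responsive zinc finger factor, was at 79.6 and 88.0 CPM against 51.7 and 33.1, at -0.98 ± 0.30 (SE) with an adjusted p of 0.582 by edgeR. daw, a ligand of the activin pathway that is known to act in sugar-dependent control of digestive enzymes, was at 43.6 and 41.3 CPM against 31.9 and 26.4, at -0.54 ± 0.26 (SE). cad, a homeobox factor of the posterior gut, was the most abundant by CPM and overlapped, at 87.1 and 197.3 against 126.3 and 256.0.

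Markers of other tissues also differed between libraries of the whole flies. The 4 muscle markers were all lower in both galactose libraries and summed to 2744 and 4671 CPM on glucose and 2318 and 1739 on galactose, with Mhc, the muscle myosin heavy chain, Act79B and Act88F at -0.82, -0.93 and -1.36. Cyp4g1, a P450 of oenocytes and fat body, was at 12231 and 20250.5 CPM against 6482 and 4488, at -1.57 ± 0.33 (SE), and DESeq2 called it lower (adjusted p = 0.0161), while the fat body gene apolpp overlapped and Lsp2 was at or under 1.01 CPM in every library. The yolk genes Yp1, Yp2 and Yp3 were lower in both galactose libraries at -0.42, -0.36 and -0.34, except that Yp1 overlapped under median-of-ratios scaling. The oocyte genes of the same list overlapped and had higher means on galactose, osk at 138.1 and 629.6 CPM on glucose against 316.3 and 836.2, and bcd at 13.95 and 66.6 CPM against 28.6 and 113.4. Sums of 6 male accessory gland markers (897.3, 403.8, 476.1 and 668.7 CPM in the order glucose 1, glucose 2, galactose 1, galactose 2), of 4 testis markers (451.0, 114.0, 229.8 and 189.0) and of 2 spermatheca proteases (39.5, 28.2, 33.95 and 14.4) overlapped, and for the male lists the lowest and the highest library were both glucose libraries. Glucose replicate 2, the lowest library for both Jon66C genes, was also the lowest for the summed male lists and the highest for the summed muscle list and Cyp4g1. Single markers departed from that order: TpnC4 of muscle was highest in glucose replicate 1, at 27.98 CPM. Of the accessory gland markers, Acp26Aa, SP and Acp98AB were lowest in galactose replicate 1, at 63.8, 14.9 and 1.54 CPM. Acp36DE, Acp53Ea and Acp62F were lowest in glucose replicate 2. From the testis list, bam was at 12.8 and 16.9 CPM in the whole flies on glucose against 20.9 and 40.9 on galactose. It was higher without overlap, at 1.06 ± 0.39 (SE) with an adjusted p of 0.588 by edgeR, while dj, Mst87F and fzo of that list overlapped. The part of tissue make-up in the protease values was not tested.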

How the data were processed

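Whole-fly RNA was measured in 4 poly(A) libraries, 2 per diet. Counts per gene were deposited by the authors, and per the submitters' processing notes Bowtie2 2.2.3, TopHat2 2.0.12, HTSeq 0.6.1, DESeq2 and the BDGP6 build were named, without settings. The authors' deposited table gives log2 fold changes, p-values and adjusted p-values, of glucose over galactose by its values, and normalized counts as a signal averaged per diet by the authors. Symbols were matched for 17251 of 17628 identifiers; unmatched ones held 4.52% to 4.90% of counts. Genes were kept by filterByExpr (minimum count 10, total 15) and tested by diet with edgeR 4.0.16 (limma 3.58.1, R 4.3.3), TMM scaling and Benjamini-Hochberg adjustment over all genes at 0.05, with 2 residual degrees of freedom among libraries. RPKM used annotated exonic length. Fits were tested on simulated data.

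Members and gene lists (132 of 136 listed genes matched) were chosen with earlier results of these data known. Values are given in full for the 8 members with the highest mean CPM and, for each direction, the 4 with the lowest p (mean of at least 5 CPM), with similar copies beside them; similarity of copies comes from general knowledge, since no sequence was compared. From each list the 3 smallest p and the most abundant gene were named. The accessory gland, testis and spermatheca lists were exceptions, given as sums, with single markers of the male lists named by their library order. Results were recomputed without each library, with summed copies, with a replicate block, with median-of-ratios and upper-quartile scaling, with no filter or 1 CPM in 2 libraries, and with limma-voom and DESeq2 1.42.0.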

Additional observations from a re-analysis of the deposited data

How the results depend on the processing

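edgeR called 0 genes in all, 0 members and 0 genes of the 13 digestive and tissue lists, and DESeq2 called 88, 2 and 2. At an unadjusted p under 0.05 there were 5 members, against 3 with DESeq2 and 3 with median-of-ratios scaling. Galactose minus glucose in the summed share was 0.297 percentage points and -0.065 on the upper-quartile scale. With each library left out, by edgeR or DESeq2, all genes called ran from 0 to 549, members called from 0 to 2, list genes called from 0 to 13, members at unadjusted p under 0.05 from 2 to 7, and the members' median from -0.25 to 0.18 (-0.096 with all libraries). The edgeR call counts came from leaving out glucose replicate 1 (549) or 2 (147), and were 0 without either galactose library; a lone library was assumed to vary like the others, and the cause was not tested. Under upper-quartile scaling Jon65Aiv and Jon65Aiii turned to -0.019 and -0.017.

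Of 240 values of named members under the alternatives 217 kept their direction and side of the threshold, 15 turned and 8, all of the Jon66C pair, passed it. Over the libraries left out, log2 fold changes ran from -0.069 to 0.30 for Jon65Aiv, -0.61 to 0.32 for betaTry, -0.095 to 0.34 for Jon65Aiii, -0.14 to 0.055 for Jon25Biii and -0.034 to 0.40 for Jon99Fi; alphaTry ran from -1.07 to -0.050, iotaTry from -0.93 to -0.16 and Ser8 from -1.08 to -0.29. DESeq2 fits with a library left out and the calls on lists were added after seeing the data. Same-numbered libraries deviated together only weakly (r = 0.225 across 12529 genes) in 2 pairs, too few to take the numbers as pairing. With a replicate block edgeR called 0 genes and 0 members, and 6 members had an unadjusted p under 0.05. With 2 libraries per diet, differences of the size of the spread above could not be seen.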
